A study of Mus musculus with 384 samples.

Results

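The 39 genes described here encode proteins of smooth muscle contraction and of the actin cytoskeleton it works on. They were taken by name from a list and found as 39 of the 49585 gene rows of a count table of mouse mammary cells. They were split by textbook knowledge into 18 muscle-specific members, whose products are known mainly from muscle and myoepithelium, and 21 broad members, which most cell types express in some form. The members and all other lists were chosen with earlier results of these data known, so counts of members called describe a chosen list. Single cells were sorted into a plate of 384 wells and their messenger RNA was read as full-length complementary DNA by a Smart-seq2 protocol. The 3 gates were embryonic progenitors from the skin of female Lgr5-EGFP-IRES-CreER embryos at embryonic day 14, sorted for high CD49f and high Lgr5 reporter; basal cells of adult Rosa-tdTomato mammary glands, sorted as CD24+ with high CD29; and luminal cells of the same kind of gland, sorted as CD24+ with low CD29. Cells with CD45, CD31 or CD140a were sorted out in all gates, no treatment is named, and the age of the adults is not given in the sources used here. Embryo and adult cells therefore also differ in strain and age, and these cannot be told apart from the gate.

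Smooth muscle contracts when calcium-bound calmodulin activates myosin light chain kinase, which phosphorylates the regulatory light chain and lets myosin pull on actin filaments. Myosin phosphatase reverses this step, and the transcription factor SRF with its coactivator myocardin switches on many of the genes by binding a sequence called the CArG box. In the mammary gland the contractile cells are the basal myoepithelial cells, which squeeze milk from the alveoli when oxytocin reaches its receptor.

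A single well was used where it held at least 50000 reads on genes, spike-in sequences left out. This kept 347 of 376 single wells (92.7% of the embryonic, 91.5% of the basal and 92.6% of the luminal wells), with medians of 697578 gene reads in embryonic, 450196 in basal and 525176 in luminal wells. For comparison 50 cells of each gate were sorted into a single well, which held 621792 embryonic, 601969 basal or 532820 luminal gene reads, and 4 wells without a cell held 34 to 563 gene reads and no read of a muscle-specific member. Neither animals nor litters are named in the labels. Each gate therefore counts as 1 sample whose cells do not serve as replicates, and differences between gates were described without a test. Intervals are 95% intervals for counting error alone, and reads amplified without molecular identifiers are not independent molecules. Levels are in CPM, the reads of a gene scaled to a total of 1000000 gene reads, summed over the wells of a gate unless single wells are named.

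Some wells stood apart from their gate in genes other than the members. Each well was set against the 3 wells of 50 cells by rank correlation over genes other than the members. All but 1 embryonic and all but 3 luminal wells were most like their own gate, as were 98 basal wells, while 8 basal wells were most like the luminal well and 2 most like the embryonic one. Of 6 basal epithelial markers 3 or more were detected in 84 basal, 94 embryonic and 5 luminal wells, and 3 or more of 7 luminal markers in all but 3 luminal wells, in 12 basal and in 58 embryonic wells. Most wells of a gate were in neighbouring plate rows: all but 1 of the basal wells in rows A to F and 95 of the luminal wells in rows G to K, with 8 embryonic wells in the former and 15 in the latter rows. Row F held 8 basal, 15 luminal and 1 embryonic well, and those 15 luminal wells carried every read of the basal keratin Krt5 in the luminal gate, while 14 of them also showed 3 or more luminal epithelial markers at 5 reads in 50000. Of the embryonic wells 28 showed 3 or more of 8 fibroblast markers and of the basal wells 6 showed 3 or more of 8 endothelial markers, although CD140a and CD31 had been gated out. No pair of index sequences was shared by wells.

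The CArG box was searched for because it is the known binding motif of SRF, itself a member. Sequences of 250 bases before the gene start were taken from RefSeq for the build GRCm38.p6, and 34 of the members had an entry, 14 of them muscle-specific and 20 broad. The muscle-specific Actg2, Myh11, Tagln and Myocd and the broad Rock1 had none and were not searched. The counts of boxes therefore cover neither class in full and do not rank the classes. The box was searched in its strict form, in which the 6 bases of its core are all A or T, on both strands, which for this palindromic pattern is the same search. A strict box stood in 1.62% of the 27025 genes with an entry, in 1 of 14 muscle-specific members (Myl9) and in 4 of 20 broad members (Myl6, Cnn2, Vcl and Srf). A form with 1 C or G in the core stood in 8.33% of all genes, in 3 of 14 muscle-specific members (Acta2, Myl9 and Pdlim3) and in 1 of 20 broad members (Tpm3). The sites are printed 5′ to 3′ on the gene's strand with the box in capitals, first the strict boxes and then the 2 sites of Acta2, whose basal level per kilobase of exon, 4306 CPM, was the highest of the members.
Myl9, strict, chr2:156775293-156775322, plus strand: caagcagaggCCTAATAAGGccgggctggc
Myl6, strict, chr10:128493040-128493069, minus strand: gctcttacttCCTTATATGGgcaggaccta
Cnn2, strict, chr10:79988534-79988563, plus strand: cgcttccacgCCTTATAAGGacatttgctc
Vcl, strict, chr14:20929161-20929190, plus strand: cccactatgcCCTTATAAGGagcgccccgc
Srf, strict, chr17:46556225-46556254, minus strand: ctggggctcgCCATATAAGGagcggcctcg
Srf, strict, chr17:46556205-46556234, minus strand: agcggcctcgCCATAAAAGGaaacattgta
Acta2, 1 C in the core, chr19:34255438-34255467, minus strand: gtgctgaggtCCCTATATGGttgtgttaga
Acta2, 1 G in the core, chr19:34255388-34255417, minus strand: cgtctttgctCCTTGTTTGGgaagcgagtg
The boxes of Vcl and Cnn2 have the same 10 letters, and the 2 boxes of Srf do not overlap. Counted from the start in the RefSeq table, the Acta2 boxes began 84 and 34 bases before it, and the Cnn2 and Myl6 boxes 56 and 50 bases. The GENCODE models of Acta2 and Myl6 begin further upstream, so that these sites lie within the gene bounds of that annotation. A match is a description of letters, not of binding.

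Muscle-specific members were far higher in the basal gate than in either other gate. A gene was taken as measured where 1 of the compared gates reached 5 CPM. Against embryonic progenitors 16 of 17 measured members were at least 2-fold higher in basal cells and 0 were lower, where 53.2% of all 12808 measured genes differed by 2-fold and 19.4% were higher in basal cells. Against luminal cells 16 of 17 were again at least 2-fold higher in basal cells and 0 lower, where 49.6% of 11885 genes differed by 2-fold and 28.3% were higher in basal cells. The median log2 ratio, computed with 1 CPM added to both levels, was 6.18 against embryonic and 6.09 against luminal cells, beside medians of −0.38 and 0.14 over all genes measured. Both comparisons use the same basal wells and a list chosen with earlier results of these data known. Without the basal well with most reads of each gene, the median against luminal cells was 5.86, with 16 members higher and 0 lower. Of the 17, 10 reached 5 CPM in basal but not in embryonic cells and 7 in basal but not in luminal cells, so the limit itself selected them for a difference. The exception in both comparisons was Ppp1r12b, a targeting subunit of myosin phosphatase, and the member below the limit was Myocd. Together the 18 members took 1.81% of the basal gene reads (0% to 6.404% over single wells, median 1.41%), 0.0370% of the luminal and 0.018% of the embryonic reads.

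**Figure D1:**
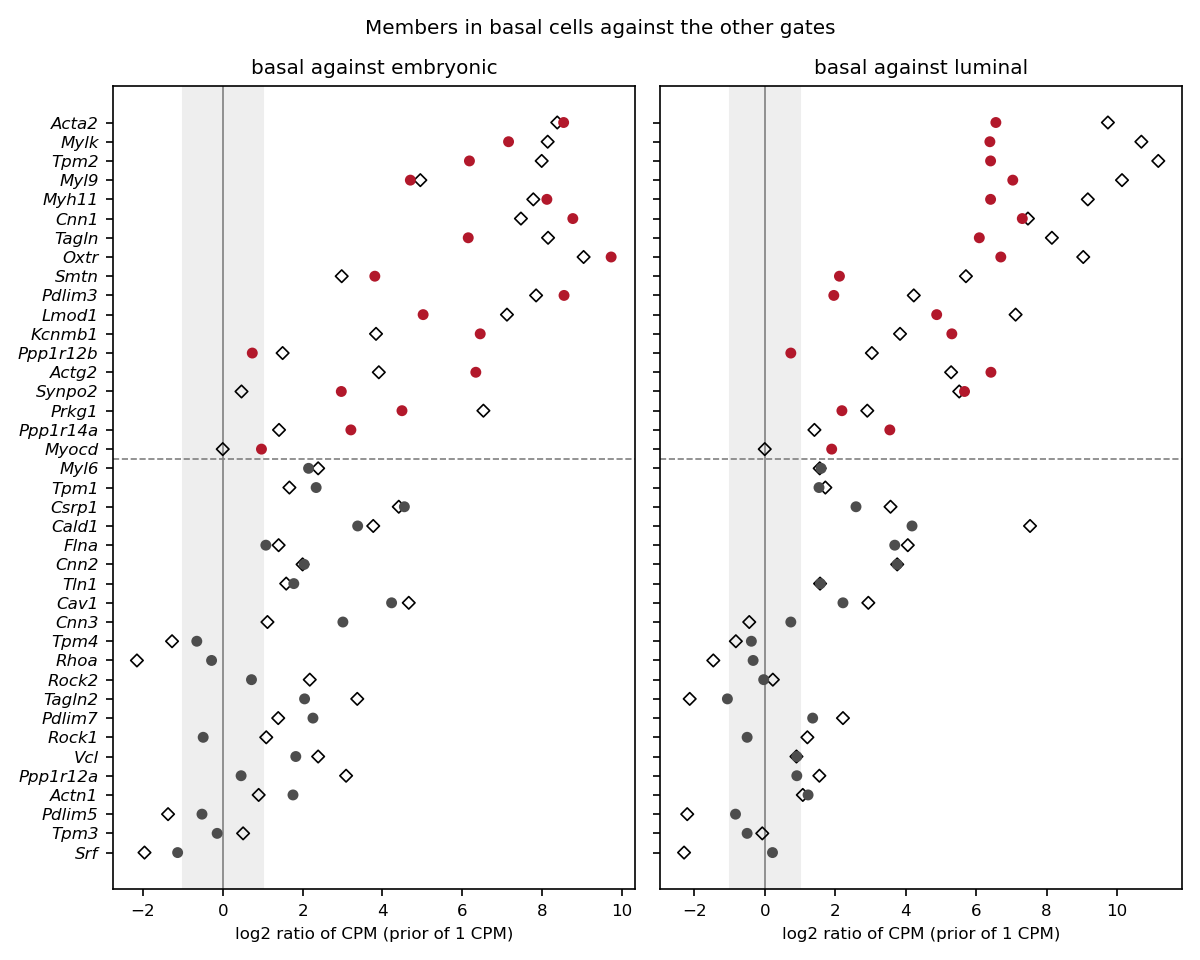
Log2 ratio of CPM, with 1 CPM added, of the 39 members in basal against embryonic (left) and basal against luminal cells (right). Filled dots are summed single wells, red for muscle-specific and grey for broad members, open diamonds are the wells of 50 cells, the grey band spans ratios under 2-fold, and Myocd is drawn although it was below the level limit; 16 of the 17 measured muscle-specific members lie right of the band in both panels.

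The smooth muscle alpha actin was the member with the highest level per kilobase in basal cells, while Tagln2 led in luminal and Tpm4 in embryonic cells. Its gene Acta2 (ENSMUSG00000035783.8, chr19:34241090-34255590 on GRCm38, minus strand) ranged over the basal wells from 0 to 32585 CPM with a median of 6202. In luminal wells the median was 0 and the highest 7061 CPM, and in embryonic wells the median was 0 and the highest 1135 CPM. The groups overlapped at their edges, since 79 basal wells lay above every embryonic well and 47 above every luminal well. Summed levels were 9455 CPM in basal, 99.5 in luminal and 24.5 in embryonic cells, so that basal cells were 95.01-fold (interval 92.8 to 97.3) above luminal and 386.5-fold (371 to 403) above embryonic cells. In the wells of 50 cells, where fewer cells of a type and less RNA per cell cannot be told apart, Acta2 stood at 7284, 7.51 and 20.9 CPM in the same order. A single embryonic well held 70.7% of the embryonic Acta2 reads, and without it the ratio of basal to embryonic cells was 1300.1-fold (1203 to 1407). The ratio of basal to luminal cells was 132.5-fold (128.9 to 136.4) without the luminal well with most Acta2 reads. Without the basal well with most Acta2 reads that ratio was 89.3-fold (87.2 to 91.5).

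Tropomyosin, transgelin and calponin lie along the actin filament and steady or tune it, and their smooth muscle forms were highest in basal cells too. Tpm2, the beta tropomyosin, had a median of 1534 CPM in basal wells (0 to 11543) and of 0 in the other gates, with highest wells of 1596 in luminal and 493 CPM in embryonic cells. Summed, Tpm2 stood at 2221 CPM in basal, 25.2 in luminal and 29.6 in embryonic cells, 88.3-fold (84.2 to 92.7) and 74.99-fold (72.2 to 77.95) lower than in basal cells. Of the basal wells 72 lay above the highest embryonic and 53 above the highest luminal well. Cnn1, calponin 1, stood at 856 CPM in basal, 4.39 in luminal and 0.956 in embryonic cells. A single embryonic well held 82.6% of the embryonic Cnn1 reads, and without it the ratio of basal to embryonic cells went from 895-fold (724.5 to 1119) to 5053-fold (3063 to 9028). Tagln, transgelin or SM22, stood at 279, 3.10 and 2.96 CPM in the same order. Of the exon length of Tagln 67.9% is overlapped by genes on the other strand, Pcsk7 and Gm48529, so that without the strand mode of the counting its reads cannot be told from theirs. Smtn (smoothelin) and Lmod1 (leiomodin 1, which starts actin filaments in muscle) stood at 212 and 105.5 CPM in basal cells. Their levels were 48.1 and 2.62 CPM in luminal cells and 14.2 and 2.29 CPM in embryonic cells. Smtn was thus the less uneven of the pair. However, 16.3% of the exon length of Smtn is overlapped by Gm11946 and Gm11947 on the other strand, which leaves its counts uncertain. Without the highest well of the gate the luminal levels of Cnn1, Tagln and Lmod1 were 2.66, 1.84 and 1.09 CPM, and the embryonic levels of Tagln and Lmod1 1.29 and 1.05 CPM.

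Myosin and the enzymes that switch it on were basal as well. Myh11, smooth muscle myosin heavy chain, had a median of 493 CPM over basal wells (0 to 4080), with highest wells of 899.8 CPM in luminal and 158 CPM in embryonic cells. Its summed levels of 894, 9.52 and 2.22 CPM in basal, luminal and embryonic cells gave ratios of 93.8-fold (86.8 to 101.5) and 402-fold (349.7 to 464). A single embryonic well held 76% of the embryonic Myh11 reads, and without it the second ratio was 1656-fold (1249 to 2246). Without the luminal well with most Myh11 reads the first was 151-fold (136.8 to 166.9). Myl9, the smooth muscle regulatory light chain, stood at 1276 CPM in basal, 8.72 in luminal and 48.3 in embryonic cells, and 1 luminal well held 62.1% of its luminal reads, without which the luminal level was 3.32 CPM. Mylk, the kinase that phosphorylates Myl9, stood at 1219, 13.5 and 7.53 CPM in the same order, with 64.6% of the embryonic reads in 1 well, without which the embryonic level was 2.68 CPM. Per kilobase Myl9 was the muscle-specific member with the highest embryonic level, at 41.55 CPM, and its embryonic level was 26.4-fold (25.6 to 27.3) below that of basal cells. Prkg1, a kinase that relaxes smooth muscle in response to cyclic GMP, stood at 40.6 CPM in basal, 8.13 in luminal and 0.856 in embryonic cells, or 0.361 without the highest embryonic well. Ppp1r14a, an inhibitor of myosin phosphatase also called CPI-17, stood at 11.2 CPM in basal cells, with 3 reads in luminal and 29 in embryonic cells, 89.7% of the latter in 1 well. Ppp1r12b stood at 66.2 CPM in basal, 39.3 in luminal and 39.3 in embryonic cells, ratios of 1.68-fold (1.60 to 1.77) and 1.69-fold (1.61 to 1.77). A single luminal well held 32.2% of the luminal Ppp1r12b reads, and without it basal cells were 2.46-fold higher (2.32 to 2.60).

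The muscle-specific members at the membrane, and the second smooth muscle actin, had 1 to 5 reads in the embryonic gate and low levels in the luminal gate. Oxtr, the oxytocin receptor (ENSMUSG00000049112.9, chr6:112473683-112489943, minus strand), had a median of 132.2 CPM over basal wells (0 to 6505), and 73 basal wells, 67.6% of them, held a read. In the embryonic gate Oxtr had 2 reads in all, and the basal level of 866 CPM was 38953-fold higher (10783 to 321658), a ratio that rests on those 2 reads and was 77074-fold (13833 to 3044331) without 1 of the 2 wells. In the luminal gate it stood at 7.33 CPM over 11 wells, with 504 CPM in the highest. Kcnmb1, the beta subunit of a calcium-activated potassium channel that limits contraction, stood at 87.3 CPM in basal and 1.23 in luminal cells, with 1 embryonic read. Without the luminal well with most Kcnmb1 reads its luminal level was 0.324 CPM. Actg2, the gamma actin of enteric smooth muscle, had 4620 basal reads (84.7 CPM), 5 embryonic reads in 1 well and no luminal read, which put basal at least 1929.8-fold above luminal cells with 3 reads as the floor. Actg2 was uneven within the basal gate: 17 wells had a read of it, and 1 well held 33.4% of the reads. Without that well basal cells were at least 1299-fold above luminal cells.

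**Figure D2:**
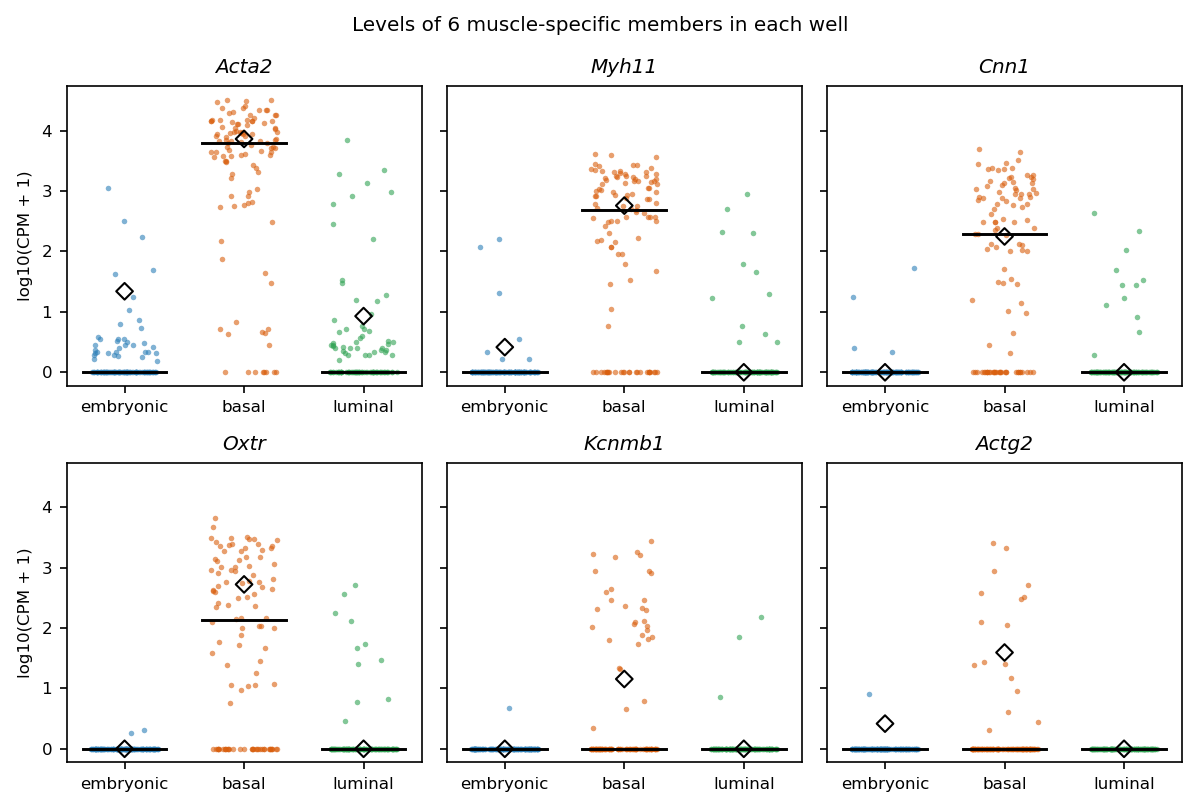
Level of 6 muscle-specific members in each single well (dots), as log10 of CPM with 1 added, by gate. Black lines are medians over wells and open diamonds the wells of 50 cells; the basal medians of Acta2, Myh11, Cnn1 and Oxtr are 6202, 493, 191 and 132.2 CPM, and the medians of Kcnmb1 and Actg2 are 0 in every gate.

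Proteins of dense bodies and focal contacts anchor the filaments, and the pair of muscle-specific members among them differed in which other gate had them. Pdlim3, an actinin-binding PDZ and LIM protein, stood at 388 CPM in basal and 98.7 in luminal cells, a ratio of 3.93-fold (3.82 to 4.04), and had 3 embryonic reads. Synpo2, an actin-bundling protein also called myopodin, stood at 52.3 CPM in basal and 5.83 in embryonic cells, a ratio of 8.98-fold (8.18 to 9.88), and had 3 luminal reads. A single basal well held 56.3% of the basal Synpo2 reads, and without it basal cells stood at 23.1 CPM. Without the embryonic well with most Synpo2 reads the ratio was 18.3-fold (16.1 to 20.8). Myocd, the coactivator of SRF, was read in 4 basal wells, 1 luminal well and 1 embryonic well, at 2.95, 0.0585 and 1.01 CPM, and in no well of 50 cells.

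Broad members differed less between basal cells and the other gates than muscle-specific members did, and their direction was less uniform. Of the 21, 13 were at least 2-fold higher in basal than in embryonic cells and 1 lower, with a median log2 ratio of 1.78. Against luminal cells 10 were higher in basal cells and 1 lower, with a median of 0.91. The lower member was Srf against embryonic cells and Tagln2 against luminal cells. Each call turned on 1 well of the gate compared. Without the embryonic well with most Srf reads the fold was 2.02 (1.92 to 2.13) and the log2 ratio under the limit. Without the luminal well with most Tagln2 reads the fold was 1.99 (1.95 to 2.03). The 10 basal wells most like another gate held 15.13% of the basal gene reads. They held 48.98% of the basal Tagln2 and 24.38% of the basal Srf reads. Tagln2 stayed at least 2-fold lower in basal cells without the basal well with most Tagln2 reads, and within plate row F. Of all genes measured, 19.4% against embryonic and 28.3% against luminal cells were at least 2-fold higher in basal cells, and 33.8% and 21.3% were lower. Scaling moved these counts: with spike-in reads as the total the median of all genes shifted from −0.38 to −1.68 against embryonic and from 0.14 to −0.66 against luminal cells, and 5 broad members were then higher and 6 lower in basal cells in each comparison.

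The broad members highest in basal cells were cytoskeletal proteins that smooth muscle also makes in quantity. Csrp1, a LIM protein of actin bundles, had a median of 603 CPM in basal, 24.4 in luminal and 0 in embryonic wells. Its summed levels were 1183, 196 and 49.4 CPM, so that basal cells were 6.04-fold (5.93 to 6.15) above luminal and 23.95-fold (23.2 to 24.7) above embryonic cells. Cald1, caldesmon, which restrains myosin on the thin filament, stood at 1193 CPM in basal, 64.8 in luminal and 113.7 in embryonic cells. Tpm1, alpha tropomyosin, stood at 1269, 435 and 249 CPM, and Myl6, the essential light chain, at 1169.7, 384 and 264 CPM in that order of gates. Myl6 had reads in 96.3% of basal, 94.6% of luminal and 92.9% of embryonic wells, with highest wells of 4552, 2009 and 1093 CPM, so the gates overlapped. Flna (filamin A, an actin crosslinker) stood at 1032 CPM in basal, 78.8 in luminal and 489 in embryonic cells, 13.1-fold (12.7 to 13.5) and 2.11-fold (2.08 to 2.14) below basal; the direction against embryonic cells reversed with spike-in reads as the total, to a log2 ratio of −0.26. Cav1, caveolin 1 of membrane caveolae, stood at 904, 194 and 47.1 CPM.

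Most adhesion and filament-linking proteins of the broad class were highest in basal cells too. Tln1 (talin 1, which activates integrins) stood at 262 CPM in basal, 87.2 in luminal and 75.6 in embryonic cells. Vcl (vinculin, a link from integrins to actin) stood at 123.1, 64.8 and 33.9 CPM, with 25.5% of its exon length overlapped by Ap3m1 on the other strand. Actn1 (alpha actinin 1) stood at 74.2, 30.96 and 21.3 CPM, and Pdlim7, a PDZ and LIM protein, at 127.1, 49.01 and 25.8 CPM. All 4 were at least 2-fold higher in basal than in embryonic cells, and all but Vcl also against luminal cells. A single luminal well decided the last call, since Vcl was 2.06-fold (1.98 to 2.14) higher in basal cells without it. Pdlim5 was lower in basal cells by under 2-fold, with 134.3 CPM in basal, 240 in luminal and 193 in embryonic cells, and by 2.25-fold (2.19 to 2.32) against luminal cells without the basal well that held 21.5% of its reads.

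Over all summed single wells, Ppp1r12a and the transcription factor Srf did not reach 2-fold higher levels in basal cells. Ppp1r12a, the main targeting subunit of myosin phosphatase, stood at 153, 80.9 and 111.3 CPM in basal, luminal and embryonic cells, within 2-fold between gates. It passed 2-fold against luminal cells when the luminal well with most of its reads was left out (2.19-fold, 2.11 to 2.27). In the wells of 50 cells Ppp1r12a stood at 89.7 CPM in basal, 30.03 in luminal and 9.65 in embryonic cells. Srf stood at 35.4 CPM in basal, 30.1 in luminal and 78.5 in embryonic cells, 2.22-fold (2.11 to 2.34) lower in basal than in embryonic cells.

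Within each protein family the share of the muscle form was compared per kilobase of exon, the scale on which levels of different genes can be set side by side. Acta2 made up 65.1% of the per-kilobase reads of 4 cytoplasmic and smooth muscle actins in basal cells, 2.09% in luminal and 0.533% in embryonic cells, while Actb, beta actin, made up 28.6%, 73.5% and 88.8%. Myh11 made up 86.6% of conventional myosin heavy chains in basal cells. The luminal myosin was mostly Myh9 (57.7%) with Myh14 (29.2%), and the embryonic one mostly Myh10 (63.3%) with Myh9 (35.5%). Tpm2 made up 67.8% of tropomyosins in basal cells, against Tpm4 with 68.8% in luminal and 79.95% in embryonic cells. Myl9 made up 78.6% of regulatory light chains in basal, 2.50% in luminal and 18.96% in embryonic cells, the rest being Myl12a and Myl12b. Part of the sequence of Tpm3 (23.2% of its 50-base stretches), Tpm4 (11.7%), Cnn3 (10.3%) and Myl6 (8.38%) is shared with other annotated genes, so their counts are uncertain.

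The leading calponin differed between the 3 gates, while transgelins differed between basal cells and the other two gates. Cnn1 made up 44.4% of calponins in basal cells, Cnn3 76.1% in luminal cells and Cnn2 82.3% in embryonic cells. In the wells of 50 cells these shares were 21.9% for basal Cnn1, 91.1% for luminal Cnn3 and 50.5% for embryonic Cnn2, so Cnn1 was below Cnn2 (50.97%) in the basal well of 50 cells. Tagln made up 51.7% of transgelins in basal cells against 0.565% in luminal and 4.53% in embryonic cells, where Tagln2 made up the rest. In the basal wells most like their own gate the share of Tagln was 67.1%. Wells tended to hold one form: Tagln was the higher in 57 of 80 basal wells with 20 or more reads of the family, with a median share of 98.7%, and Tagln2 in 62 of 64 luminal wells. These shares and counts are uncertain, because 67.9% of the exon length of Tagln is overlapped by genes on the other strand and none of that of Tagln2. Tagln2 stood at 273 CPM in basal and 571 CPM in luminal cells, 2.09-fold (2.05 to 2.13) higher in the latter. By contrast the phosphatase family was mixed in each gate: Ppp1r12b made up 12.2%, 11.8% and 10.7% of the targeting subunits in basal, luminal and embryonic cells.

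**Figure D3:**
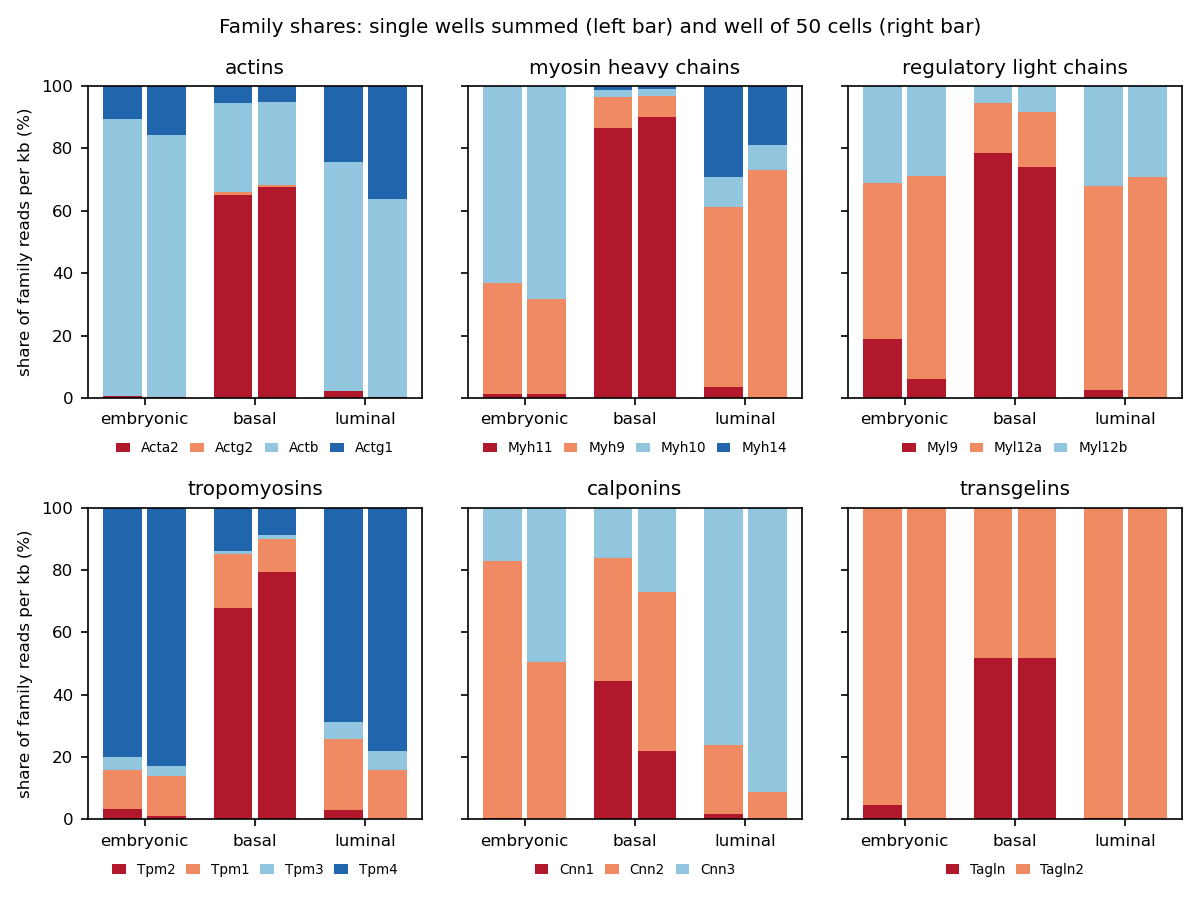
Share of each gene in the per-kilobase reads of its family (y axis, percent), by gate, with summed single wells as the left bar and the well of 50 cells as the right bar of each pair. The muscle form, in dark red, is the tallest part in basal single wells in all 6 families, with 65.1% for Acta2 and 86.6% for Myh11.

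Detection was compared at equal depth, with each well thinned at random to 50000 reads and 5 reads as the limit, so that an undetected gene is not an absent one. Basal wells had a median of 8 muscle-specific members (range 0 to 14 of 18), embryonic wells 0 (0 to 4) and luminal wells 0 (0 to 10). Broad members had medians of 9, 7 and 8 of 21 in basal, embryonic and luminal wells, so the broad class hardly separated the gates by this measure. At least 3 muscle-specific members were found in 91 basal, 6 embryonic and 8 luminal wells, and 5 of the 6 embryonic wells were among those with fibroblast markers. Acta2 was detected in 85.2% of basal wells (exact Clopper-Pearson interval 77.1% to 91.3%), 8.04% of luminal and 3.15% of embryonic wells. Mylk was detected in 82.4%, 5.36% and 1.57%, and Oxtr in 53.7%, 3.57% and 0% of basal, luminal and embryonic wells, where 0 wells allow a share of up to 2.36% if 3 wells are taken as the limit and of 2.86% by the exact interval. Without thinning 87.04% of basal, 13.4% of luminal and 9.45% of embryonic wells held a read of Mylk.

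**Figure D4:**
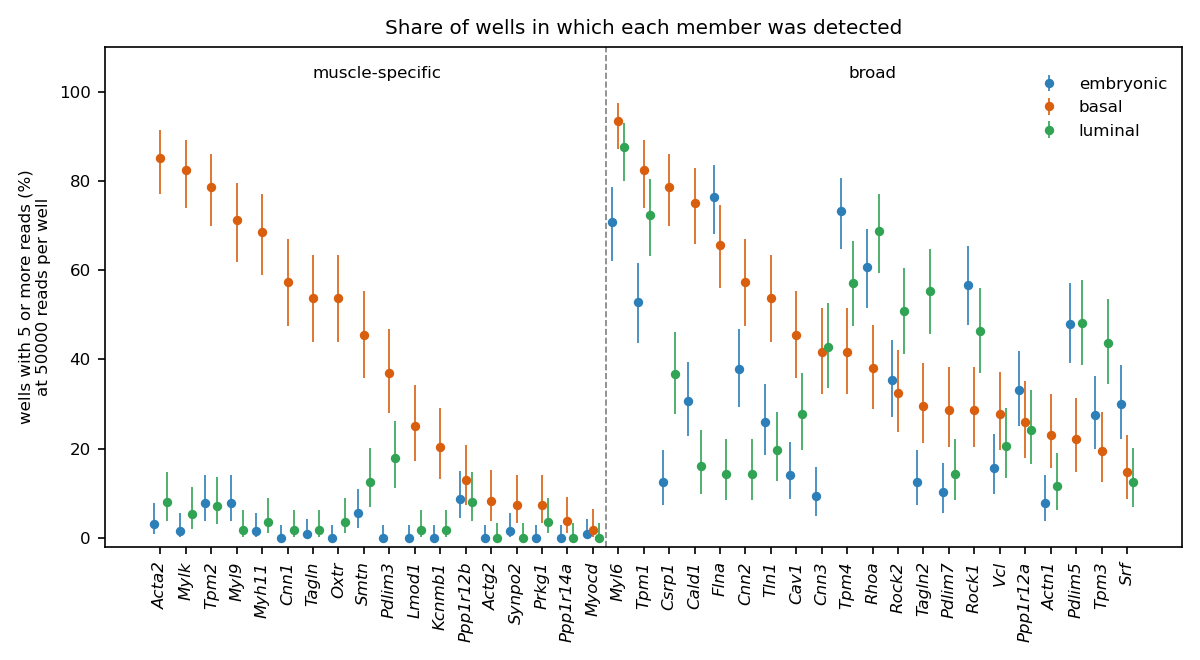
Share of wells (y axis, percent) in which each member reached 5 reads after thinning to 50000 reads, by gate, with exact 95% intervals for counting error. Members are ordered by their basal share within each class; Acta2 reaches 85.2% of basal and 3.15% of embryonic wells, while Myl6 reaches 93.5%, 87.5% and 70.9% of basal, luminal and embryonic wells.

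Among the 98 basal wells most like their own gate, Acta2 was detected in 88, Mylk in 85, Tpm2 in 81, Myl9 in 74 and Myh11 in 71. As Acta2 was in 88 of the 98 wells, most wells with another member also had it: all 59 with Cnn1, all 56 with Tagln and all 38 with Pdlim3, 54 of 55 with Oxtr, 45 of 47 with Smtn and 83 of 85 with Mylk. The rank correlation of levels across these 98 wells had a median of 0.36 over 55 pairs of muscle-specific members (0.13 to 0.74), 0.20 over 120 pairs of broad members and 0.23 over 176 mixed pairs. These are descriptions over wells that share 1 library preparation and differ in depth before thinning. Keratin and Trp63 genes outside the list stood with Acta2 at 0.15 for Krt5, 0.41 for Krt14, 0.42 for Trp63 and 0.41 for Krt8. The muscle-specific members used ranged with Acta2 from 0.26 for Smtn to 0.74, so the ranges overlapped. Of the 98 wells 7 had no muscle-specific member detected, 5 of them with 3 or more endothelial markers, so the values also reflect a mix of cells. The closest pairs were Acta2 with Cnn1 and Acta2 with Tagln, both at 0.74, and Acta2 with Tpm2 at 0.72.

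Not every basal well carried the program. In 11 basal wells no muscle-specific member was detected, and of these 5 showed 3 or more endothelial markers and 4 were most like the luminal well. The 8 basal wells most like the luminal well held 11.6% of the reads of the gate and 0.979% of its muscle-specific reads. Pericytes and vascular smooth muscle, which also make Acta2 and Myh11, were checked with 10 markers: 2 basal wells showed 3 or more of them, and these held 0.0585% of the muscle-specific reads of the gate. The summed level of these markers ranged over basal wells from 0 to 40858 CPM with a median of 0, with Rgs5 at 70.2 and Mcam at 24.7 CPM as the most abundant, and Cox4i2 at 0 reads. Of 13 markers of sarcomeric muscle none reached 5 CPM in basal cells. Without the basal wells with 3 or more endothelial or pericyte markers the counts of 16 higher and 0 lower muscle-specific members were the same against both gates. The endothelial wells held 0.366% of the muscle-specific reads of the gate, so leaving out both sets could hardly have lowered these counts.

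Among luminal wells, those of plate row F held most reads of the actin, myosin and oxytocin receptor genes. The 15 wells held 10.4% of the gene reads of the gate and 52.3% of its muscle-specific reads, the other 97 holding 47.7%. They held 99.3% of the luminal Acta2 reads, 99.5% of Myl9, 97.9% of Myh11 and 99.6% of Oxtr. In the other 97 luminal wells Acta2 stood at 0.751 CPM, the highest well holding 14.7 CPM, and it was detected in 0 wells at equal depth, which allows a share of up to 3.09%. Without row F basal cells were 12592-fold (9440 to 17200) above luminal cells for Acta2 and 3910-fold (2330 to 7153) for Myh11. The count was again 16 of 17 members higher in basal cells, which leaving out wells rich in luminal muscle-specific reads could hardly have lowered. Within row F itself 15 of 16 measured members were at least 2-fold higher in the 8 basal than in the 15 luminal wells. The median log2 ratio of these members was 3.79, and Pdlim3 was the exception at 1.52-fold (1.41 to 1.64). Over all genes the median in row F was −0.44, and 38.1% of the genes past 2-fold were higher in the basal wells. Of the broad members 10 were higher and 7 lower in the basal wells of row F. Krt5 and Krt14, basal keratins, were also higher in the 15 wells, at 70.5 and 351 CPM against 0 and 0.229 CPM in the other luminal wells, and 5 of the 15 showed 3 or more of 6 basal markers against 0 of 97; their part in the result was not tested.

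**Figure D5:**
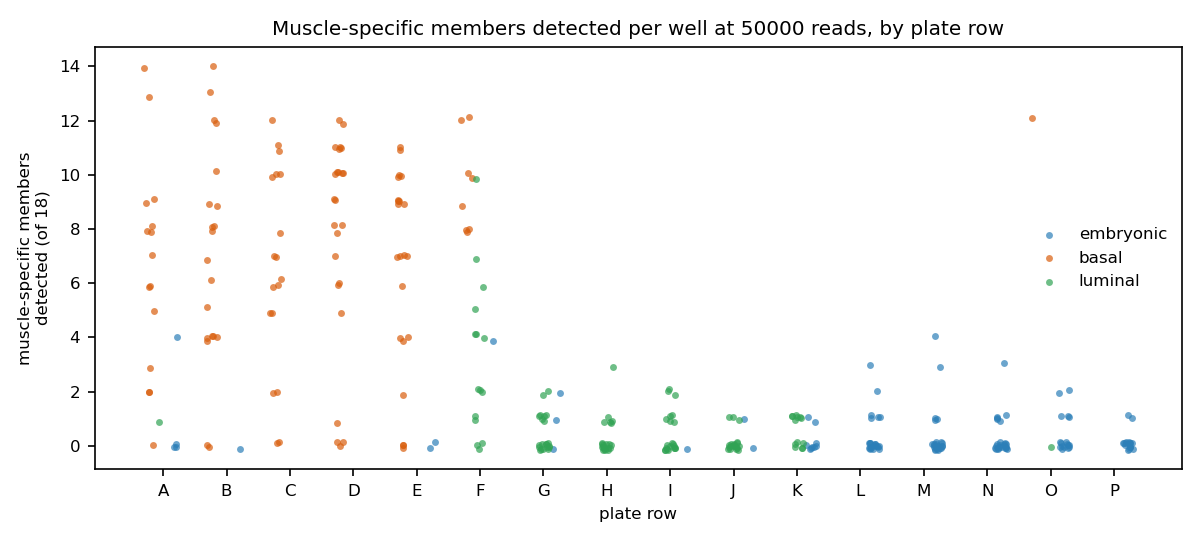
Number of muscle-specific members detected per well (y axis, of 18, at 50000 reads) against plate row (x axis), with each well as a dot coloured by gate and spread slightly for visibility. Basal wells fill rows A to F with row medians of 6.5 to 9.5, and 7 of the 8 luminal wells with 3 or more members lie in row F.

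Over single wells, Pdlim3, Smtn, Prkg1 and Ppp1r12b kept their luminal level outside row F. In the other 97 luminal wells Pdlim3 stood at 86.7 CPM, Smtn at 47.2, Ppp1r12b at 42.5 and Prkg1 at 8.16 CPM. Pdlim3 was detected in 16 of these wells and Smtn in 8, with 1 well in common, and Acta2 in none of them. Of the 16 wells with Pdlim3, 7 also had Prlr, the prolactin receptor, which was detected in 60 of the 97 wells. The luminal well of 50 cells did not show these levels. There all 18 muscle-specific members together took 0.00375% of the gene reads, against 0.0370% over the summed single luminal wells. At equal depth 0 of the 18 were detected in it.

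Embryonic progenitors against luminal cells was the comparison without the basal gate. Of 11 measured muscle-specific members, 2 were at least 2-fold higher in embryonic cells (Myl9 and Synpo2) and 6 in luminal cells (Acta2, Myh11, Smtn, Pdlim3, Oxtr and Prkg1), with a median log2 ratio of −1.69. Pdlim3, with 3 embryonic reads, was 2957-fold (1011 to 14343) higher in luminal cells, and Myl9 was 5.54-fold (5.08 to 6.04) higher in embryonic cells. Of all 12679 genes measured 56.9% differed by 2-fold, 39.3% being higher in embryonic and 17.6% in luminal cells, with a median of 0.58. Without luminal row F the median turned to 1.48 over 9 measured members, with 5 higher in embryonic cells (Acta2, Mylk, Myl9, Tpm2 and Synpo2) and 3 in luminal cells (Smtn, Pdlim3 and Prkg1). The wells of 50 cells gave a median of 2.14 with 6 higher in embryonic and 2 in luminal cells. Acta2 was 4.07-fold (3.88 to 4.27) higher in luminal cells over all wells and 32.6-fold (24.3 to 44.6) higher in embryonic cells without row F. Leaving out the embryonic fibroblast-marker wells as well gave 6.84-fold (5.02 to 9.50), and the embryonic level without its highest well was 7.27 CPM. Of the broad members 3 were at least 2-fold higher in embryonic cells (Cnn2, Flna and Srf) and 4 in luminal cells (Cnn3, Tagln2, Csrp1 and Cav1). Tagln2 was the most uneven of these, at 571 CPM in luminal and 65.3 in embryonic cells, 8.75-fold (8.51 to 8.99) apart.

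The embryonic signal was also held by few wells. The 28 wells with 3 or more fibroblast markers had 21.99% of the embryonic reads and 63.2% of the embryonic muscle-specific reads, with 83.6% of Acta2, 79.3% of Myl9, 88.8% of Mylk and 74.4% of Tpm2. Col1a2 stood at 6511 CPM in these wells and at 74.2 CPM in the other 99. In the other 99 wells Acta2 stood at 5.13, Myl9 at 12.8, Mylk at 1.08 and Tpm2 at 9.71 CPM, while Tagln (2.99), Myh11 (2.22) and Synpo2 (6.64 CPM) were level with or above their values in the fibroblast-marker wells. Without these 28 wells basal cells were 1842-fold (1662 to 2049) above embryonic cells for Acta2, 17 of 17 measured muscle-specific members were at least 2-fold higher in basal cells, and Ppp1r12b passed at 2.14-fold (2.03 to 2.26). Left out together with luminal row F, 3 members were higher in embryonic (Acta2, Myl9 and Synpo2) and 3 in luminal cells, with a median log2 ratio of 0.09. The part of fibroblast transcripts in the embryonic levels was not tested.

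Other genes of the pathway gave a frame for the members. The shares of all genes at least 2-fold higher in basal cells, 19.4% against embryonic and 28.3% against luminal cells, and lower, 33.8% and 21.3%, stand beside each of these counts. Of 7 non-muscle actins and myosins, 2 were at least 2-fold higher (Myh14 and Myl12a) and 1 lower (Myh10) in basal than in embryonic cells, and 0 higher and 1 lower (Myh14) than in luminal cells. Here Actb stood at 5064, 4264 and 4972 CPM in basal, luminal and embryonic cells. Of 18 measured genes of calcium and G-protein signalling, 3 were higher in basal than in luminal cells and 2 lower, and 6 higher and 3 lower than in embryonic cells, so that the share higher than in luminal cells was below that of all genes. Rgs2, a brake on G-protein signalling, stood at 200.4 CPM in basal, 80.8 in luminal and 7.65 in embryonic cells, and Atp2a2, the calcium pump of the reticulum, at 444, 261 and 147 CPM. The most abundant of these, Calm2 (calmodulin), was highest in embryonic cells with 1552 CPM against 837 in basal and 757 in luminal cells.

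Of 9 other receptors for contractile hormones, 4 were measured against embryonic cells, with 1 higher and 1 lower in basal cells, and 3 against luminal cells, with 2 higher and 1 lower, where 19.4% and 28.3% of all genes were higher in basal cells. The endothelin receptor Ednrb stood at 73.4 CPM in basal, 0.234 in luminal and 53 CPM in embryonic cells, with 50.5% of its basal reads in 1 well, and Ednra at 43.7, 4.71 and 27.3 CPM, so neither passed 2-fold between basal and embryonic cells. Agtr1a, the angiotensin receptor, was highest in luminal cells at 49.03 CPM against 11.5 in basal and 2.17 in embryonic cells. Of 10 further transcription factors and SRF coactivators, Mef2c stood at 84.1 CPM in basal, 0.161 in luminal and 4.09 in embryonic cells, and Tead1 at 324, 103.1 and 156 CPM. Of the 7 of these that were measured, 3 were higher and 1 lower in basal than in embryonic cells, and 3 higher and 0 lower than in luminal cells. Of 26 measured other smooth muscle and cytoskeletal proteins, 18 were higher in basal than in embryonic cells and 3 lower, and 14 higher and 1 lower than in luminal cells, both above the 19.4% and 28.3% of all genes higher in basal cells. Palld (palladin of actin bundles) stood at 867 CPM in basal, 68.9 in luminal and 78.5 in embryonic cells, and Nexn (nexilin) at 172.5, 1.99 and 30.6 CPM. Des, desmin of muscle intermediate filaments, did not reach 5 CPM in any gate.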

How the data were processed

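The authors deposited read counts per gene for 384 wells (49585 genes, 92 spike-ins). Per the submitters' processing notes they used cutadapt 1.13, STAR 2.5.2b, HTSeq 0.6.0 and GRCm38; the sources used here do not give options or the strand mode of counting. Symbols, positions and exon lengths came from GENCODE M21, matched on 49326 identifiers. The study labels 137 embryonic, 118 basal and 121 luminal single wells, of which 127, 108 and 112 were used. One further well was left out because its labels disagree on the gate. The 39 members and all lists were chosen with earlier results of these data known. Members given in full were the 5 most abundant of each class, those against their class and those with 0 reads; of pathway lists up to 3 genes by level and 2 by ratio. Kept wells (50000 gene reads or more) were summed to CPM per gate and compared as log2 ratios with a prior of 1 CPM, where either gate reached 5 CPM. Fold intervals are exact conditional Poisson intervals. Code was tested on simulated data. Alternatives were other scaling (edgeR 4.0.16 for TMM factors), well filters, priors and classes; no doublet caller was run. The levels of some broad members are not reported here. Gates with 1 sample gave no test. Python 3.11.15 and scipy 1.17.1 were used.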

Additional observations from a re-analysis of the deposited data

How the results depend on the processing

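No paired analysis was possible because the result comes from no test and the labels name no animal or number that pairs wells across gates. In every alternative listed, 15 or more muscle-specific members were at least 2-fold higher in basal than in embryonic and than in luminal cells, and 0 were lower. The causes of the moves below were not tested. The median log2 ratio of muscle-specific members against embryonic cells (6.18) was 4.94 with spike-in reads as the total, 7.29 in the wells of 50 cells, 4.59 with a prior of 5 CPM and 5.58 with Tpm1, Cald1 and Csrp1 in the class. Against luminal cells (6.09) it was 5.36 in thinned wells, 5.29 with spike-in reads, 7.29 in the wells of 50 cells, 3.79 in shared plate rows, 4.17 with a prior of 5 CPM and 5.49 with the 3 genes added. Between embryonic and luminal cells (−1.69) it was −0.94 with the stricter well filter, −0.45 with no minimum level and −1.01 with a prior of 5 CPM, and it turned to 2.14 in the wells of 50 cells, 0.39 in shared plate rows and 1.48 without luminal row F. The settings without row F, fibroblast-marker, endothelial or pericyte wells, or a gene's highest well were chosen after seeing the data. Given the muscle-specific reads they held, leaving out row F, fibroblast-marker, endothelial or pericyte wells could hardly have lowered the counts higher in basal cells.

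The median of all genes was −0.38, 0.14 and 0.58 in the 3 comparisons, and −0.07, −0.00 and 0.13 with TMM, −0.02, −0.00 and 0.08 with median-of-ratios scaling, and −1.68, −0.66 and 1.07 with spike-in reads. The share of calls in the direction of the first gate was 36.5%, 57.03% and 69.1%, then 47.9%, 51.5% and 54.4%, 49.6%, 51.6% and 52.6%, and 10.2%, 26.8% and 80.6% in the same order. Broad members higher in embryonic than in basal cells (1) numbered 0 with mean well CPM, thinned wells, TMM and median-of-ratios scaling, 6 with spike-in reads and 4 in the wells of 50 cells; those higher in basal cells (13) numbered 5 with spike-in reads, with a median of 0.45. Against luminal cells 5 were higher in basal (10) and 6 in luminal cells (1) with spike-in reads, with a median of 0.09, and 4 were higher in luminal cells in the wells of 50 cells and 7 in shared rows. Between embryonic and luminal cells, broad members higher in luminal cells (4) numbered 9 with TMM, 10 with median-of-ratios scaling and 7 in shared rows. Muscle-specific members higher in embryonic cells (2) numbered 1 with TMM, with median-of-ratios scaling and without fibroblast-marker wells, 6 in the wells of 50 cells, 4 in shared rows and 5 without row F; those higher in luminal cells (6) numbered 2 in the wells of 50 cells and 3 without row F.

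The median number of muscle-specific members per embryonic well was 1 with 1 read as detection and with the 3 genes added. In the wells of 50 cells the embryonic to luminal log2 ratio was 1.36 for Acta2, 1.38 for Myh11, 2.73 for Smtn and −0.32 for Srf; without row F it was 3.86 for Acta2 and 1.39 for Myh11. With spike-in reads Flna was at −0.26 in basal against embryonic cells. Depth limits the rare members: Myocd had 4 luminal and 91 embryonic reads, and Ppp1r14a 3 luminal reads.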

Other observations

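One well has a title for one gate and a sort label for another, and was kept out of all comparisons. It held 774060 gene reads, of them 798 on muscle-specific members: 424 on Pdlim3, 373 on Smtn and 1 on Acta2. Among broad members it held 533 reads of Tpm4 and 438 of Myl6. No other muscle-specific member had a read in it.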
